A study of Mus musculus with 18 samples.

Results

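NF-kB and inflammatory cytokine genes were described as a family of 10 members in BMC, an immortalised line of murine brown preadipocytes differentiated into brown adipocytes, thermogenic fat cells. The members were the rows of the gene count table with the symbols Il6, Lif, Cxcl1, Cxcl5, Ccl2, Ccl7, Nfkbia, Tnfaip3, Socs3 and Ptgs2, which are 10 of its 45706 genes. All 10 had counts in some library, and 9 passed the filter on low counts. Cxcl5 did not. The study asked how the transcriptome changes over time once norepinephrine, the transmitter of sympathetic nerves, starts lipolysis in these cells. The labels give 3 groups of 6 libraries: 0 h (not induced), and 4 h and 24 h after 1 µM norepinephrine, with the numbers 1 to 6 in the titles of each group and a single batch for all 18. Every group shared the same differentiation, begun with dexamethasone (1 µM), indomethacin (0.125 mM), isobutylmethylxanthine (0.5 mM), insulin (20 nM) and triiodothyronine (1 nM) and continued with the last 2 alone up to stimulation on day 7. Dexamethasone is a glucocorticoid that represses inflammatory genes, and indomethacin inhibits the enzyme that Ptgs2 encodes, and both had been withdrawn before norepinephrine was added. Nothing in the labels says whether BMC is 1 clone or whether replicates are separate cultures, so the p-values below rest on a spread that may be technical.

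NF-kB is a family of transcription factors held in the cytoplasm by inhibitor proteins of the IkB family. When receptors for cytokines or bacterial products activate the IKK kinases, the inhibitors are degraded and NF-kB enters the nucleus, where it induces cytokines, chemokines and its own inhibitors. In adipose tissue these genes are known from inflammation in obesity, and adrenergic stimulation through cyclic AMP is also known to induce Il6 and Ptgs2 in fat cells.

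Expected counts totalled 7010742 to 26501223 per library, with a median of 21226304, and levels are given below as CPM, counts relative to the library total, scaled between libraries by trimmed mean of M values (TMM). The number in the title separated the libraries far more than the labelled time. It accounted for a median of 72.0% of the variance of a tested gene, and time for 3.78%. Libraries whose numbers lie 3 apart resembled each other across times, so levels were also described by number set: numbers 1 and 4, numbers 2 and 5, and numbers 3 and 6, each with 6 libraries and 2 from every labelled time. No label says what a number stands for, and the sets were joined with earlier results of these data known, so their comparisons describe these libraries and name no treatment. Fos, an immediate early gene, was at 182 ± 42.8 CPM in numbers 1 and 4 (SD, n = 6), 5.48 ± 1.19 in numbers 2 and 5 and 3.41 ± 0.645 in numbers 3 and 6. Ucp1, the heat-producing protein of brown fat, was at 15.8 ± 1.97, 10.5 ± 0.590 and 1.81 ± 0.534 CPM. The 13 brown adipocyte markers, Ucp1 among them, were all tested. Their sum per library was 4358 to 4548 CPM in numbers 1 and 4. It was 3369 to 3846 in numbers 2 and 5 and 3732 to 4484 in numbers 3 and 6, another order than that of Ucp1. In numbers 3 and 6, edgeR called 5 of the 13 higher and 5 lower than in numbers 1 and 4 (all genes 30.2% and 29.5%). Against numbers 2 and 5 it called 8 higher and 2 lower (28.6% and 28.5%). T and B cell markers summed to at most 0.257 CPM and endothelial markers to at most 1.52. One library stood apart: 24 h replicate 5 had the lowest total and 41.5% of its counts in the ribosomal RNA genes Yam1 and Gm26917, against 6.78% to 10.6% in the other 17. No call of a member in a comparison of labelled times or sets depended on it.

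Of the 10 members, 7 had promoter windows in the RefSeq table of build GRCm38.p6 (the assembly also called mm10), from 250 bases before to 50 bases after an annotated start. The windows were searched on both strands for the kappaB consensus, the element that NF-kB proteins bind, and for TGACGT, the core of the cyclic AMP response element (CRE core). Among 32851 windows of the same 300 bases, 4.51% held the kappaB consensus and 7.51% the CRE core. Both motifs were chosen with earlier results of these data known, and a match describes letters only, not a bound site. The windows below are those of members whose levels differed most between the sets or that hold both motifs, printed 5′ to 3′ on the gene's strand with motif matches in capitals.
Il6, chr5:30012864-30013163, plus strand: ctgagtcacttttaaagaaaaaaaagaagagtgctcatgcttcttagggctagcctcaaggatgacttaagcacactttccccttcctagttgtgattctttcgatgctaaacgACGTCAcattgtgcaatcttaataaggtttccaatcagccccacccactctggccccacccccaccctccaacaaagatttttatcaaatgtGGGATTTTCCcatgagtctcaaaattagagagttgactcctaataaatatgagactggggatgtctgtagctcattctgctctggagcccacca
Cxcl1, chr5:90890995-90891294, plus strand: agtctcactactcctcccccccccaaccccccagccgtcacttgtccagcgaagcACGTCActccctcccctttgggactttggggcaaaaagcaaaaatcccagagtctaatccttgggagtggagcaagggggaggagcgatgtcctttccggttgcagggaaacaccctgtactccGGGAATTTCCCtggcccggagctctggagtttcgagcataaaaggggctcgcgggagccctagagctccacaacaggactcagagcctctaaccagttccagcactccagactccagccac
Nfkbia, chr12:55492598-55492897, minus strand: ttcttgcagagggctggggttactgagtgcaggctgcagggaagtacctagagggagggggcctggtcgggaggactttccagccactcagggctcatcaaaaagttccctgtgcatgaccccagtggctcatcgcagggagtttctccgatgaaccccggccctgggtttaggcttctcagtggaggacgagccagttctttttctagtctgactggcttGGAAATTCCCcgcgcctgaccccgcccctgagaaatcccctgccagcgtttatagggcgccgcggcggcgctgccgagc
Tnfaip3, first start, chr10:19015361-19015660, minus strand: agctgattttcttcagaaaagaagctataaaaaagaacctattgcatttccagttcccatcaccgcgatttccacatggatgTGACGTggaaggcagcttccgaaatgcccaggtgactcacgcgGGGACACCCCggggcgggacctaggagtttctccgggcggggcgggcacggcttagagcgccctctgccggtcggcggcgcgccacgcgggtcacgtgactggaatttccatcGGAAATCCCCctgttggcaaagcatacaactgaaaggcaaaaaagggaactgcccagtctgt
Ptgs2, chr1:150099781-150100080, plus strand: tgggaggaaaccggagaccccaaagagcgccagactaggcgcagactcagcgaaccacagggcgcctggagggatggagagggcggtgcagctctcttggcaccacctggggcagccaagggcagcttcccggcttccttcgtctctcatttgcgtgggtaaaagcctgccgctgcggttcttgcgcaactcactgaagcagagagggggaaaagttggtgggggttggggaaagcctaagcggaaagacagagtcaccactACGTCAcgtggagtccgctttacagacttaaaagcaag
The kappaB consensus began at -44 from the start of Il6, at -29 in Nfkbia and at -125 and -12 in Tnfaip3. In Cxcl1 the capitals at -71 and -70 are 1 element read on both strands, so its 2 matches overlap. The CRE core began at -136 in Il6, -195 in Cxcl1, -168 in Tnfaip3 and 13 in Ptgs2. Neither motif was found in these letters in the windows of Lif and Socs3 or at the second annotated start of Tnfaip3. Cxcl5, Ccl2 and Ccl7 were not searched.

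**Figure D1:**
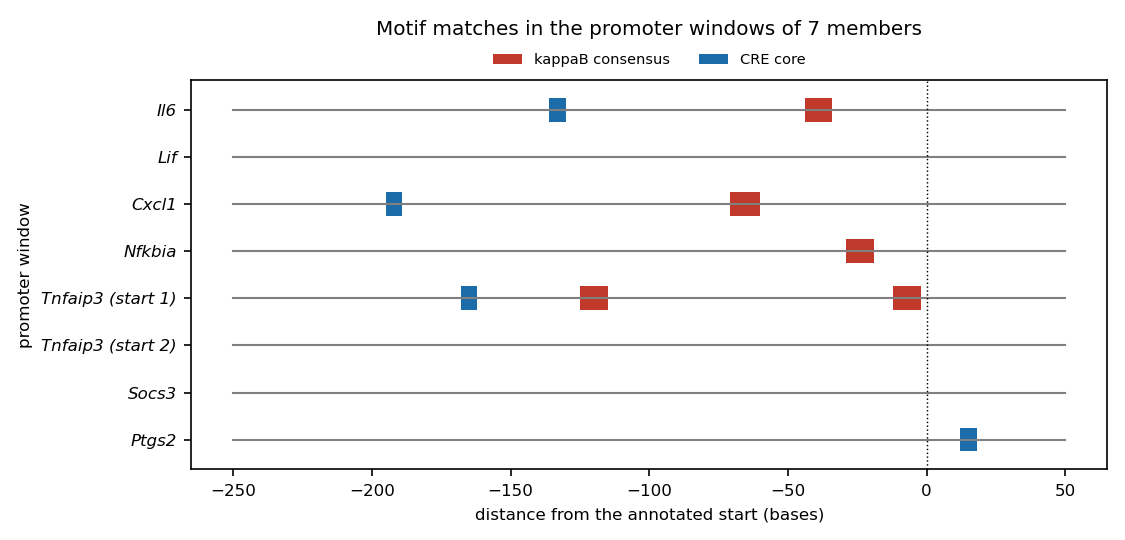
Matches of the kappaB consensus (red) and the CRE core (blue) in 8 promoter windows of 7 members; the x axis is the distance from the annotated start in bases and each grey line is 1 window. The kappaB consensus lies within the 71 bases before the start in Il6, Cxcl1 and Nfkbia, and Tnfaip3 has 2 matches in its first window.

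The cytokine genes Il6 and Lif were not called by edgeR in any comparison of labelled times or of number sets over all 18 libraries. Il6 encodes interleukin 6, which signals through the gp130 receptor to STAT3, and lies on chromosome 5 at 30013114 to 30019981 of mm10. It was counted in all 18 libraries, with 4 to 34 counts in each and 316 in total, so its values are imprecise. By number set Il6 was at 0.929 ± 0.485 CPM in numbers 1 and 4 (SD, n = 6), 1.07 ± 0.422 in numbers 2 and 5 and 0.817 ± 0.195 in numbers 3 and 6. Within numbers 1 and 4 the libraries at 0 h were the lowest, at 0.412 and 0.409 CPM, those at 4 h were at 0.717 and 1.14, and those at 24 h the highest, at 1.53 and 1.36. At 0 h the other 4 libraries ranged from 0.953 to 1.13 CPM, all above those of numbers 1 and 4. Set differences within a time were contrasts in a fit of all 18 libraries with a mean for each set and time, which share their spread. Within 0 h, Il6 was higher in numbers 2 and 5 than in numbers 1 and 4 by 1.38 on the log2 scale (edgeR adjusted p = 0.0139). Against numbers 1 and 4 it was also higher in numbers 3 and 6, by 1.31 (edgeR adjusted p = 0.0189). At 24 h alone the second difference had the opposite sign, -0.99 (edgeR adjusted p = 0.0495). The test of whether set differences changed with time gave an edgeR adjusted p of 1 for Il6, so this reversal did not pass over all genes.

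Lif, leukemia inhibitory factor, is another cytokine of the gp130 family, on chromosome 11 at 4257557 to 4272514. Its counts ran from 5 to 46 per library. Levels were at 1.68 ± 0.149 CPM in numbers 1 and 4 (SD, n = 6), 1.66 ± 0.246 in numbers 2 and 5 and 1.59 ± 0.277 in numbers 3 and 6, and the groups overlapped. The log2 difference between numbers 3 and 6 and numbers 1 and 4 was -0.10, with a 95% interval from -0.42 to 0.22 (edgeR adjusted p = 0.616). Differences within that interval were not detectable at this depth.

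**Figure D2:**
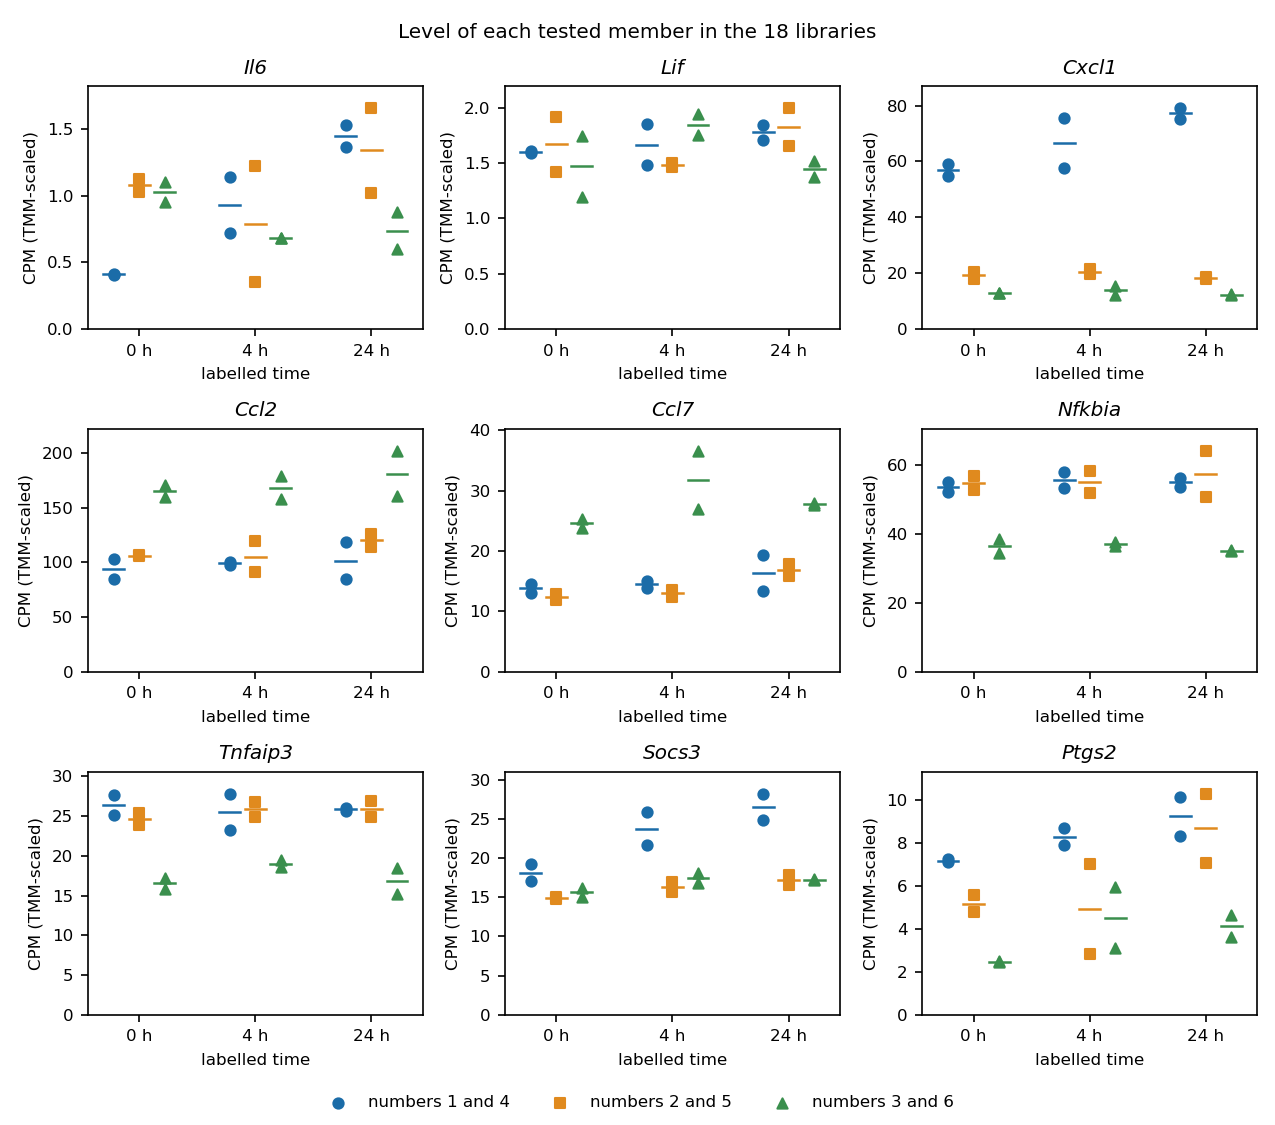
CPM (TMM-scaled, linear axis from 0) of the 9 tested members against labelled time; each point is 1 library, colour and shape mark the number set, and short lines are means of 2 libraries. Cxcl1 in numbers 1 and 4 sits between 54.8 and 79.1 CPM at every time, while Il6 and Lif show no such separation.

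Cxcl1 differed most of all members between the sets. It encodes a chemokine that attracts neutrophils and lies on chromosome 5 at 90891241 to 90893115, with the kappaB and CRE matches shown above. In numbers 1 and 4 its libraries were at 54.8 and 59.0 CPM at 0 h, 57.6 and 75.4 at 4 h, and 79.1 and 75.3 at 24 h. In numbers 2 and 5 the lowest, median and highest libraries were at 17.9, 19.2 and 21.5 CPM, and in numbers 3 and 6 at 12.1, 12.7 and 15.3. The 3 sets did not overlap. Cxcl1 was 3.37-fold lower in numbers 2 and 5 than in numbers 1 and 4 (log2 -1.75, SE 0.09, edgeR adjusted p = 1.52e-11) and 5.16-fold lower in numbers 3 and 6 (log2 -2.37, SE 0.09, edgeR adjusted p = 2.02e-13). Between numbers 3 and 6 and numbers 2 and 5 the log2 difference was -0.62 (SE 0.10, edgeR adjusted p = 6.49e-05). On library totals without TMM scaling this last value was -0.34 and no longer passed (edgeR adjusted p = 0.109). By labelled time Cxcl1 averaged 29.7 ± 21.3 CPM (0 h, SD, n = 6), 33.6 ± 26.3 (4 h) and 35.9 ± 32.1 (24 h), so the spread within a time was far wider than the differences between times.

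Cxcl5, a related neutrophil chemokine, lies on chromosome 5 as well, ending 129616 bases before Cxcl1 begins. It had 0 to 7 counts per library, in 15 of 18 libraries and 39 in total, and was left out of the tests. A count of 0 in a library allows a level of up to 3 counts, which is 0.112 to 0.995 CPM depending on the library, counting error only. Nothing can be said of Cxcl5 at this depth beyond its detection.

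Ccl2 and Ccl7 had the opposite pattern, with the highest levels in numbers 3 and 6. Both encode chemokines that attract monocytes, and the genes are neighbours on chromosome 11, Ccl2 at 82035571 to 82037453 and Ccl7 at 82045712 to 82047525, with 8258 bases between them. Ccl2 ranged from 84.6 to 118.6 CPM in numbers 1 and 4 with a median of 99.1, from 91.3 to 126.0 in numbers 2 and 5 with a median of 110.4, and from 157.6 to 201.9 in numbers 3 and 6 with a median of 165.8. All 6 libraries of numbers 3 and 6 lay above the other 12. Ccl2 was 1.75-fold higher in numbers 3 and 6 than in numbers 1 and 4 (log2 0.81, SE 0.09, edgeR adjusted p = 9.96e-07) and 1.57-fold higher than in numbers 2 and 5 (log2 0.65, SE 0.09, edgeR adjusted p = 1.64e-05). Between numbers 2 and 5 and numbers 1 and 4 the difference was 0.16, with a 95% interval from -0.03 to 0.36 (edgeR adjusted p = 0.132). It passed without 4 h replicate 5 (0.23, edgeR adjusted p = 0.0332), without the filter on low counts (0.16, edgeR adjusted p = 0.00195) and in numbers 1 to 3 alone (0.24, edgeR adjusted p = 0.00209). The annotation places Gm17268 over all 1883 bases of Ccl2 on the opposite strand, and Gm17268 had a total count of 0.

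Ccl7 had medians of 14.2 CPM in numbers 1 and 4, 13.2 in numbers 2 and 5 and 27.3 in numbers 3 and 6. Its lowest library in numbers 3 and 6, 23.9 CPM, was above the highest of the other sets, 19.4. Ccl7 was 1.87-fold higher in numbers 3 and 6 than in numbers 1 and 4 (log2 0.91, SE 0.09, edgeR adjusted p = 1.25e-08) and 2.01-fold higher than in numbers 2 and 5 (log2 1.01, SE 0.09, edgeR adjusted p = 8.09e-09). Markers of preadipocytes and fibroblasts were also highest in numbers 3 and 6. The summed level of that list, of which 8 of 11 genes were tested, was 1617 to 1851 CPM in numbers 1 and 4, 2362 to 3144 in numbers 2 and 5 and 2948 to 3629 in numbers 3 and 6. All 8 were called higher in numbers 3 and 6 than in numbers 1 and 4, by a median log2 of 0.92, beside 30.2% of all genes. In numbers 2 and 5 against 1 and 4, 7 of the 8 were called higher, by a median log2 of 0.48, beside 29.6% of all genes. Their part in the result was not tested, and in bulk samples fewer cells of a type and less RNA per cell cannot be told apart. Of the 12 macrophage and other leukocyte markers, Adgre1, Tyrobp, C1qa and C1qb were at 0 in all libraries, and only Cd14 had enough counts to test. Cd14, a co-receptor for lipopolysaccharide, was higher in numbers 3 and 6 than in numbers 1 and 4 (log2 1.02, SE 0.25, edgeR adjusted p = 0.0011), at 1.19 ± 0.303 CPM against 0.568 ± 0.117 (SD, n = 6). The whole list summed to 0.973 to 1.56 CPM in numbers 1 and 4, 0.663 to 2.01 in numbers 2 and 5 and 1.80 to 2.57 in numbers 3 and 6, and its part in the result was not tested.

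Nfkbia and Tnfaip3, which switch NF-kB off, were lower in numbers 3 and 6 than in both other sets. Nfkbia encodes the inhibitor IkB alpha and is a direct target of NF-kB, on chromosome 12 at 55489410 to 55492647. Its levels were 54.7 ± 2.20 CPM in numbers 1 and 4 (SD, n = 6), 55.7 ± 5.04 in numbers 2 and 5 and 36.2 ± 1.62 in numbers 3 and 6. The highest library of numbers 3 and 6, 38.5 CPM, was below the lowest of the other 12, 50.5. The log2 difference was -0.59 against numbers 1 and 4 (SE 0.05, edgeR adjusted p = 8.97e-12) and -0.60 against numbers 2 and 5 (SE 0.05, edgeR adjusted p = 1.94e-11). Between numbers 2 and 5 and numbers 1 and 4 it was 0.01, with a 95% interval from -0.09 to 0.10 (edgeR adjusted p = 0.933).

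Tnfaip3 encodes A20, a ubiquitin-editing enzyme that ends NF-kB signalling, on chromosome 10 at 19000910 to 19015657. It was at 25.9 ± 1.71 CPM in numbers 1 and 4 (SD, n = 6), 25.5 ± 1.18 in numbers 2 and 5 and 17.5 ± 1.69 in numbers 3 and 6. As for Nfkbia, all 6 libraries of numbers 3 and 6, at 15.2 to 19.5 CPM, lay below the other 12, at 23.2 to 27.8. Tnfaip3 was lower by log2 -0.58 against numbers 1 and 4 (SE 0.06, edgeR adjusted p = 1e-09) and -0.54 against numbers 2 and 5 (SE 0.06, edgeR adjusted p = 1.02e-08). On library totals without scaling, numbers 3 and 6 against 2 and 5 gave -0.33 for Nfkbia (edgeR adjusted p = 0.111) and -0.28 for Tnfaip3 (edgeR adjusted p = 0.177). That scaling moved the median of all genes by 0.25 in this comparison.

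Socs3, the suppressor of cytokine signalling that gp130 cytokines induce through STAT3, was highest in numbers 1 and 4. It lies on chromosome 11 at 117966079 to 117970047. In numbers 1 and 4 it was at 17.1 and 19.2 CPM at 0 h, 21.7 and 25.9 at 4 h, and 28.2 and 24.8 at 24 h. In the other 12 libraries Socs3 ranged from 14.8 to 18.1 CPM, overlapping the library of number 1 at 0 h. The log2 difference was -0.47 for numbers 2 and 5 against 1 and 4 (SE 0.07, edgeR adjusted p = 9.05e-07) and -0.44 for numbers 3 and 6 (SE 0.06, edgeR adjusted p = 9.78e-07). The second value did not pass on library totals (-0.27, edgeR adjusted p = 0.192) or within 0 h alone (-0.21, edgeR adjusted p = 0.0925). Numbers 3 and 6 and numbers 2 and 5 differed by 0.03, with a 95% interval from -0.11 to 0.17.

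Ptgs2 encodes cyclooxygenase 2, the inducible enzyme of prostaglandin synthesis, on chromosome 1 at 150100031 to 150108227. It was at 8.23 ± 1.12 CPM in numbers 1 and 4 (SD, n = 6), 6.25 ± 2.53 in numbers 2 and 5 and 3.70 ± 1.36 in numbers 3 and 6. The lowest library of numbers 1 and 4, 7.08 CPM, was above the highest of numbers 3 and 6, 5.94, while numbers 2 and 5 spanned 2.82 to 10.3. Ptgs2 was 2.35-fold lower in numbers 3 and 6 than in numbers 1 and 4 (log2 -1.23, SE 0.18, edgeR adjusted p = 1.18e-05) and 1.71-fold lower than in numbers 2 and 5 (log2 -0.77, SE 0.19, edgeR adjusted p = 0.00252). The latter did not pass within 4 h alone (-0.31, edgeR adjusted p = 0.544) or within 24 h alone (-0.91, edgeR adjusted p = 0.0532). Numbers 2 and 5 against 1 and 4 gave -0.46 (SE 0.17, edgeR adjusted p = 0.0317). This call was lost, with edgeR adjusted p from 0.0521 to 0.0672, without any 1 of 0 h replicates 1, 2 and 4, 4 h replicate 4 and 24 h replicates 2 and 4. It did not pass within 0 h, 4 h or 24 h alone either (-0.47, -0.69 and -0.22, edgeR adjusted p = 0.237, 0.109 and 0.652).

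**Figure D3:**
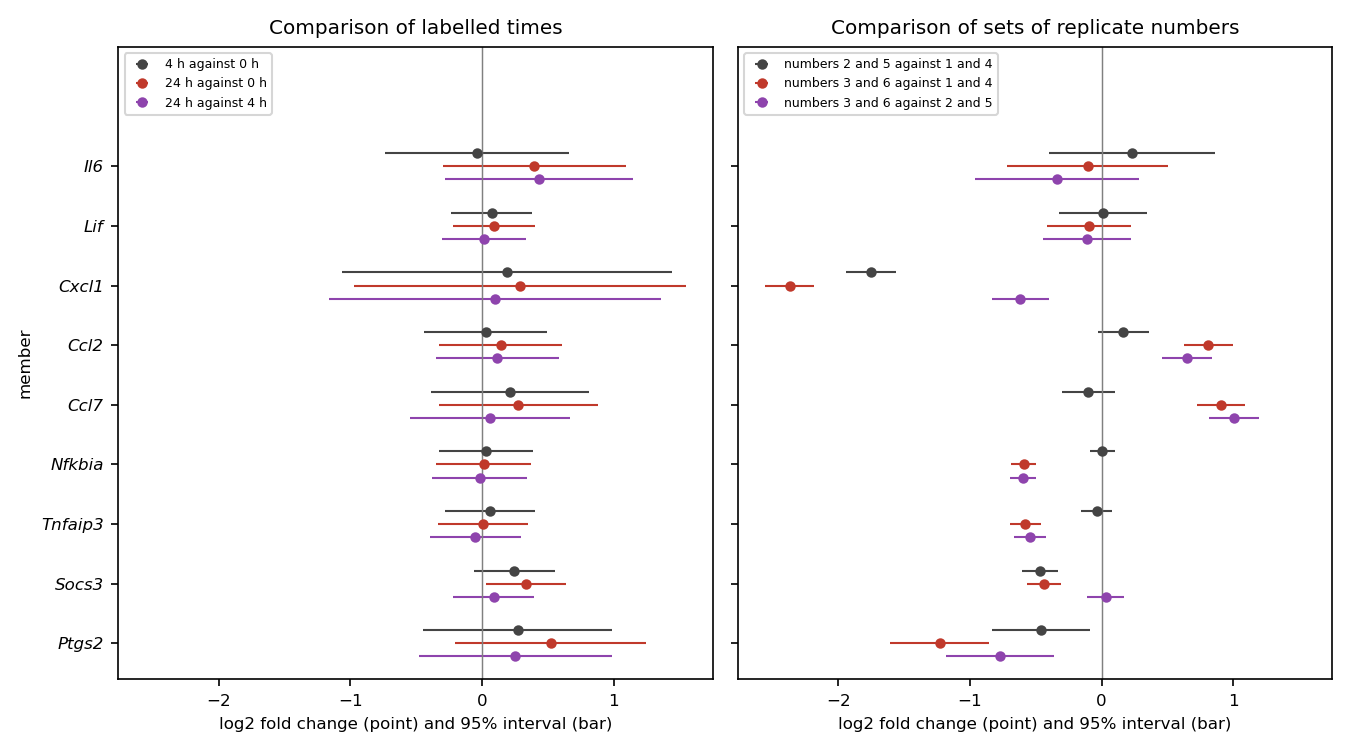
Log2 fold changes (points) with 95% intervals (bars) of the 9 tested members, on the left between labelled times and on the right between number sets, on 1 shared axis. Intervals on the left all include 0 except that of Socs3 at 24 h against 0 h, and on the right Cxcl1 reaches -2.37.

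No member was called between labelled times. The share of all 14788 tested genes called by edgeR was 0 in each of the 3 comparisons, so the 0 of 9 members called matches the background. This fit left the set differences, a median of 62.7% of the variance of a gene, in the spread. The test was thus conservative, and 0 calls do not show that members were unchanged with time. At an unadjusted p under 0.05, edgeR called 173 genes at 4 h against 0 h (1.17%), 158 at 24 h against 0 h (1.07%) and 137 at 24 h against 4 h (0.926%). The only member among them was Socs3 at 24 h against 0 h, with a log2 difference of 0.33 (SE 0.15, edgeR adjusted p = 1). Socs3 averaged 16.2 ± 1.71 CPM (0 h, SD, n = 6), 19.2 ± 3.87 (4 h) and 20.3 ± 4.94 (24 h). Groups of labelled time overlapped for all 9 members. Over all genes, 0.0676%, 0.0406% and 0% had groups without overlap in the 3 comparisons.

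The fit above leaves out the number of a library. Libraries of a set resembled each other nearly as much as those of the same number, so a pairing by number is not established. With the number as a block, 1155 genes had an unadjusted p under 0.05 at 24 h against 0 h by edgeR. By limma-voom with the block, 1731 of 14788 genes did at 4 h against 0 h. At 24 h against 0 h, 1134 of 14788 genes did, among them 4 of the 9 members. Within each number the direction was the same in all 6 for 2 members. How many of all genes did the same was not counted, so nothing particular to the members is read from these directions. With pairing not established, the differences by number are description only. In 6 of 6 numbers Socs3 had a higher level at 4 h than at 0 h, by 0.22 ± 0.13 on the log2 scale (SD, n = 6), and at 24 h the same held in 6 of 6, by 0.30 ± 0.23. For Ptgs2 the 24 h library exceeded the 0 h library in 6 of 6 numbers, by 0.59 ± 0.25, and the 4 h library in 5 of 6. With the number as a block beside time, edgeR gave 0.33 for Socs3 at 24 h against 0 h (adjusted p = 0.108) and 0.55 for Ptgs2 (adjusted p = 0.266). Limma-voom with library weights and the same block called Socs3 (0.35, limma adjusted p = 0.049). Over the alternatives tried, the adjusted p of Socs3 in this comparison otherwise ranged from 0.108 to 1. Each comparison at 24 h and 4 h against 0 h shares the 0 h libraries, so the 2 directions of Socs3 are not separate evidence. Ccl7 was higher than at 0 h in 5 of 6 numbers at both 4 h (0.16 ± 0.23) and 24 h (0.28 ± 0.25). Cxcl1 and Tnfaip3 were higher at 4 h in 5 of 6 numbers but at 24 h in 3 and 4 of 6, and Lif, Nfkbia and Ccl2 were higher at 24 h in 4 of 6.

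Of the 10 members, 9 were tested between the sets, beside a large background of genes that differed. Between numbers 2 and 5 and numbers 1 and 4, edgeR called 3 of 9 members (Cxcl1, Socs3 and Ptgs2), all lower, against 59.5% of all genes called, 29.6% higher and 29.9% lower. Between numbers 3 and 6 and numbers 1 and 4 it called 7 of 9, with Ccl2 and Ccl7 higher and Cxcl1, Nfkbia, Tnfaip3, Socs3 and Ptgs2 lower, against 59.7% of all genes, 30.2% higher and 29.5% lower. Between numbers 3 and 6 and numbers 2 and 5 it called 6 of 9, the same genes without Socs3, against 57.1%, 28.6% higher and 28.5% lower. Sets did not overlap for 1, 6 and 5 members in these comparisons, against 35.3%, 38.6% and 29.8% of all genes. The median log2 difference of the members was -0.04, -0.44 and -0.34, and that of all genes 0.00 in each. The 3 comparisons share libraries. With 9 members these shares lie near the background, and nothing particular to the family is read from them.

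The set accounted for 97.8% of the variance of Cxcl1 across the 18 libraries, 92.5% for Nfkbia, 88.2% for Tnfaip3, 84.6% for Ccl2 and 84.0% for Ccl7. Socs3 and Ptgs2 had smaller shares, 63.3% and 56.5%, and the largest shares by time among these 7, 22.2% and 13.9%. For Il6 and Lif the set accounted for 4.46% and 4.32%, against a median of 62.7% over all genes. The test of set differences that change with time called 0 of 14788 genes by edgeR, with 415 at an unadjusted p under 0.05, among them Il6, Cxcl1 and Socs3.

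Libraries with numbers 1 to 3 and those with numbers 4 to 6 share no library, so each set comparison can be made once in each. The numbers of a set were joined because they resembled each other in these data. Like results in both groups of libraries were thus largely built in and are not separate support. For numbers 3 and 6 against 1 and 4 (that is 3 against 1, and 6 against 4), all 9 members had the same sign in both, and 7 were called in both. Cxcl1 gave -2.34 and -2.39 on the log2 scale, Ccl7 0.88 and 0.92, Nfkbia -0.52 and -0.69, and Ptgs2 -1.37 and -1.10. For numbers 3 and 6 against 2 and 5, 8 of 9 members had the same sign and 6 were called in both. For numbers 2 and 5 against 1 and 4 it was 5 of 9, with Cxcl1 and Socs3 called in both, and Ptgs2 was called in 2 against 1 (-0.64, edgeR adjusted p = 0.00929) but not in 5 against 4 (-0.27, edgeR adjusted p = 0.190). Over all 14662 genes tested in both, 86.0%, 82.3% and 81.1% had the same sign for numbers 2 and 5 against 1 and 4, 3 and 6 against 1 and 4, and 3 and 6 against 2 and 5.

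**Figure D4:**
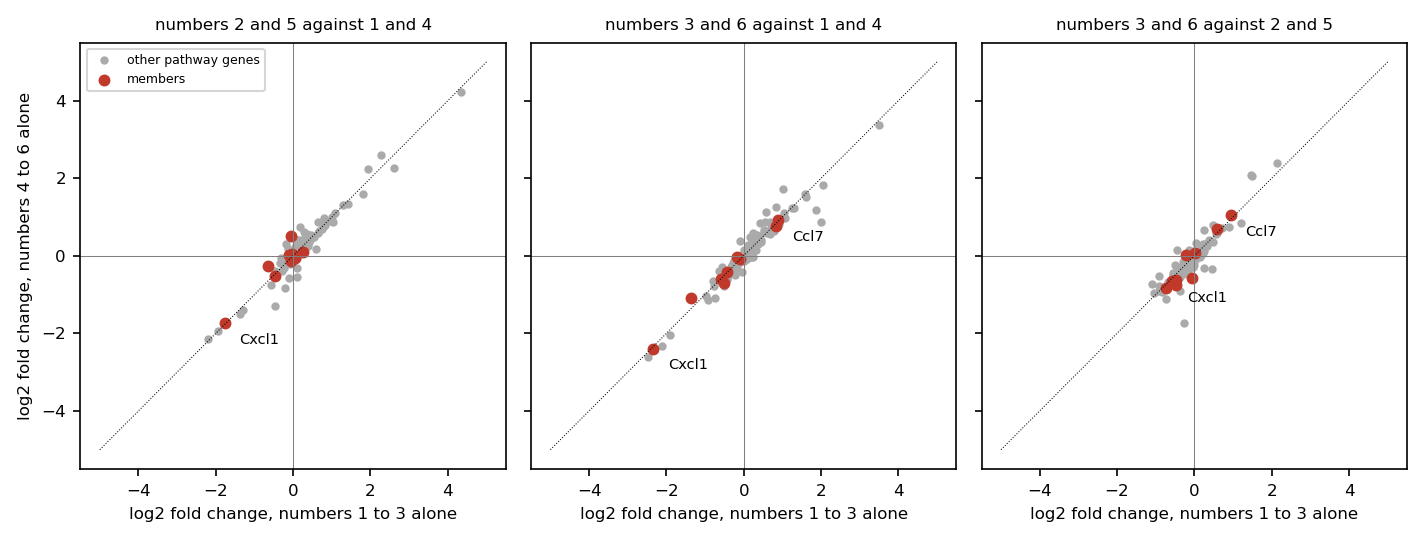
Log2 fold change in the libraries of numbers 4 to 6 against that in the libraries of numbers 1 to 3 for the 3 set comparisons; red points are members, grey points are other genes of the pathway lists, and the dotted line marks equal values. Cxcl1 lies near the dotted line in each panel, at -2.34 and -2.39 in the middle panel.

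Of the 9 tested members, 4 formed 2 pairs of like pattern that opposed each other across the 18 libraries, which share their number sets, so the correlations describe those sets. Nfkbia and Tnfaip3 correlated at r = 0.914 in log2 CPM and Ccl2 and Ccl7 at 0.895, while Ccl2 and Tnfaip3 correlated at -0.903. Cxcl1 went with none of these 4 as closely, at -0.763 with Ccl2, 0.667 with Tnfaip3, 0.641 with Nfkbia and -0.561 with Ccl7. With Socs3 it correlated at 0.809. Il6 correlated with no other member beyond 0.357, that with Ptgs2, and Lif with none beyond 0.428. Among 9031 genes of mean log2 CPM of at least 3, those most like Cxcl1 were Nr4a1, an immediate early nuclear receptor (r = 0.995), and Nfkbiz, an atypical IkB protein (r = 0.993). Nr4a1 was at 110.5 ± 28.2 CPM in numbers 1 and 4 (SD, n = 6), 10.5 ± 1.18 in numbers 2 and 5 and 5.99 ± 0.644 in numbers 3 and 6, the same order as Cxcl1. Most like Ccl2 were Abcd2 (0.938) and Cemip (0.937), and most like Ccl7 were Ogn, an extracellular matrix proteoglycan (0.979), and Fam171b (0.970). Nfkbia was most like Ank (0.974) and Rbm47 (0.965), Tnfaip3 like Mpdu1 (0.963) and Zbtb38 (0.958), Socs3 like Id3 (0.866), and Ptgs2 like Il17rc (0.885) and Lgals3bp (0.867). For Il6 and Lif the closest were weaker, Lgals4 (0.632) and Trim30d (0.616), and Ints12 (0.614) and Ensa (0.561).

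**Figure D5:**
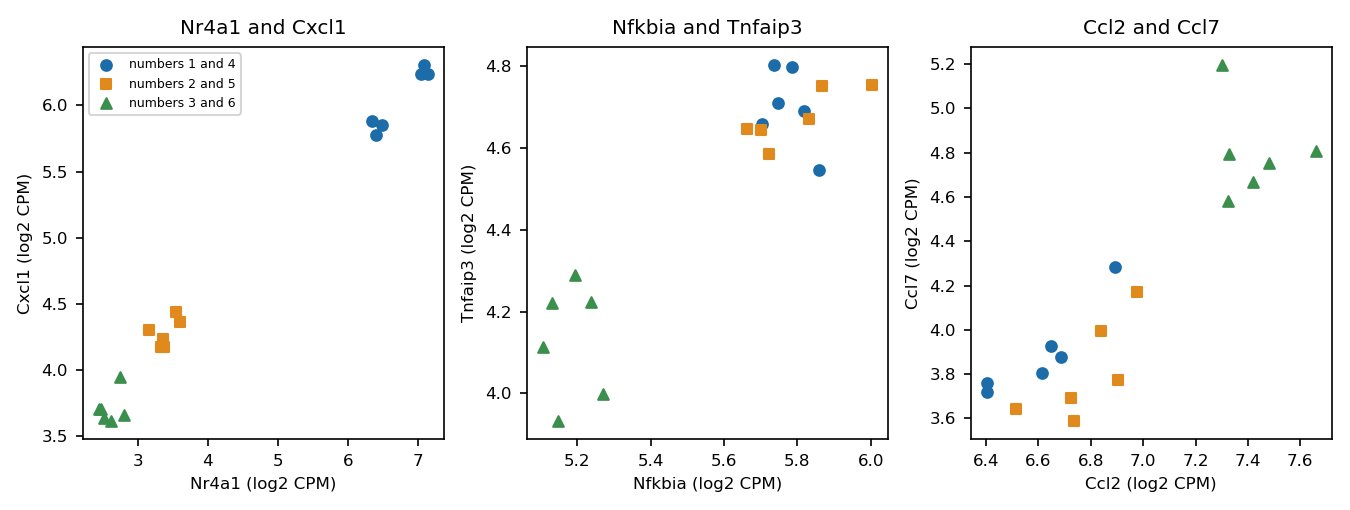
Log2 CPM of Cxcl1 against Nr4a1, Tnfaip3 against Nfkbia and Ccl7 against Ccl2; each point is 1 of the 18 libraries, coloured and shaped by number set. In the first panel the 3 sets are apart on both axes, and in the other panels numbers 3 and 6 lie apart from the other 12 libraries.

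The 138 other genes of the pathway lists, of which 102 were tested, were called higher and lower in 52 and 15 for numbers 2 and 5 against 1 and 4 (all genes 29.6% and 29.9%), in 45 and 31 for numbers 3 and 6 against 1 and 4 (30.2% and 29.5%), and in 22 and 52 for numbers 3 and 6 against 2 and 5 (28.6% and 28.5%). Their median log2 differences were 0.16, 0.09 and -0.16, against 0.00 for all genes. On library totals without scaling the same counts were 19 and 8, 38 and 9, and 23 and 11, with medians of 0.07, 0.26 and 0.10 beside -0.09, 0.17 and 0.25 for all genes. In the last comparison the median of the lists thus changed sign, while that of all genes rose from 0.00 to 0.25. The list median lay below that of all genes under both scalings. Leaving out 24 h replicate 5, with TMM scaling, gave 50 and 16, 46 and 31, and 22 and 51. None was called between labelled times. Genes named in this and the next 4 paragraphs that were not picked by the naming rule were chosen after their values were seen.

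Of the 5 NF-kB subunits, the transcription factors themselves, Rela, Relb, Nfkb1 and Nfkb2 were higher and Rel was lower in numbers 2 and 5 than in numbers 1 and 4. Of all genes, 29.6% were higher and 29.9% lower in that comparison. Nfkb1 was at 83.5 ± 3.98 CPM in numbers 1 and 4 (SD, n = 6), 116.5 ± 3.69 in numbers 2 and 5 and 88.5 ± 3.77 in numbers 3 and 6. In numbers 3 and 6 against 1 and 4, Nfkb2 was higher and Relb and Rel lower, beside 30.2% and 29.5% of all genes. Rel was at 37.4 ± 2.09, 27.9 ± 0.454 and 23.0 ± 1.76 CPM in the 3 sets, which did not overlap. Sets did not overlap for 35.3% of all genes in numbers 2 and 5 against 1 and 4. The share was 38.6% in numbers 3 and 6 against 1 and 4 and 29.8% against 2 and 5. On library totals the subunits gave 0 higher and 1 lower for numbers 2 and 5 against 1 and 4.

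The receptors upstream of NF-kB were higher in 7 and lower in 2 of 11 for numbers 2 and 5 against 1 and 4, where 29.6% of all genes were higher and 29.9% lower. Il1rl1, the receptor of interleukin 33, was at 0.653 ± 0.205 CPM in numbers 1 and 4 (SD, n = 6), 12.98 ± 4.07 in numbers 2 and 5 and 7.26 ± 2.28 in numbers 3 and 6. It was 19.4-fold higher in numbers 2 and 5 than in numbers 1 and 4 (log2 4.28, SE 0.17, edgeR adjusted p = 2.28e-16). Tlr4, the receptor of bacterial lipopolysaccharide, was at 10.18 ± 1.04, 32.8 ± 3.21 and 18.4 ± 1.66 CPM in the same order, without overlap. Of the 16 IKK kinases and adaptors, 10 were higher and 2 lower for numbers 2 and 5 against 1 and 4 (59.5% of all genes called), and 5 were higher and 8 lower for numbers 3 and 6 against 1 and 4 (59.7%). On library totals these counts were 5 and 0 for the receptors and 0 and 0, then 1 and 0, for the kinases and adaptors.

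The 13 tested NF-kB inhibitors and feedback genes, Nfkbia and Tnfaip3 included, were higher in 4 and lower in 7 for numbers 3 and 6 against 1 and 4, and higher in 2 and lower in 8 against numbers 2 and 5 (2 and 0 on library totals). Of all genes, 30.2% were higher and 29.5% lower in the first comparison, and 28.6% and 28.5% in the second. Zfp36, which destabilises cytokine messenger RNA, was at 111.4 ± 16.6 CPM in numbers 1 and 4 (SD, n = 6), 23.6 ± 3.78 in numbers 2 and 5 and 19.2 ± 2.40 in numbers 3 and 6. Nfkbiz was at 71.1 ± 14.8, 25.4 ± 1.62 and 18.03 ± 0.959 CPM, and Ier3, an early response gene from the list of other NF-kB targets, at 28.0 ± 3.62, 11.01 ± 0.837 and 6.06 ± 0.520. These 3 genes had the order of Cxcl1, and each was called lower in both other sets than in numbers 1 and 4 (log2 -1.34 to -2.54). They were picked for the largest falls between sets, and Nfkbiz also as like Cxcl1, so this likeness was largely built in. On library totals, numbers 3 and 6 against 2 and 5 did not pass for Zfp36 (-0.09, edgeR adjusted p = 0.713) or Nfkbiz (-0.26, edgeR adjusted p = 0.226).

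Among the 9 tested genes of the cytokine list, Il6 and Lif included, 5 were called higher and 0 lower in numbers 3 and 6 than in numbers 1 and 4, beside 30.2% and 29.5% of all genes. Il1b had no count, Tnf and Il1a had 1 count each in all, Il11 had 11 and Cxcl2 16. Il1rn, the antagonist of the interleukin 1 receptor, was at 21.1 ± 2.85 CPM in numbers 1 and 4 (SD, n = 6), 43.9 ± 12.99 in numbers 2 and 5 and 64.0 ± 9.09 in numbers 3 and 6. It was called higher in numbers 3 and 6 than in numbers 1 and 4 (log2 1.61, SE 0.13, edgeR adjusted p = 7.06e-08), with Csf1, Clcf1, Il33 and Tslp. Cxcl10, a chemokine induced by interferon, was at 60.4 ± 6.04, 70.5 ± 24.9 and 35.9 ± 3.12 CPM and was lower in numbers 3 and 6 than in numbers 1 and 4 (log2 -0.76, SE 0.12, edgeR adjusted p = 9.05e-05). Of 11 chemokine receptors only Ackr3 had enough counts to test.

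Around Socs3, the gp130 receptors, JAK-STAT and SOCS genes were higher in 14 and lower in 3 of 22 for numbers 2 and 5 against 1 and 4, beside 29.6% and 29.9% of all genes. On library totals 4 were higher and 2 lower. Stat3, the factor that carries gp130 signals to the nucleus, was at 73.5 ± 3.35 CPM in numbers 1 and 4 (SD, n = 6), 188.7 ± 16.1 in numbers 2 and 5 and 95.5 ± 4.09 in numbers 3 and 6, without overlap. Cish, another SOCS family member, was at 24.4 ± 1.07, 33.5 ± 1.78 and 59.2 ± 2.68 CPM, and was 2.42-fold higher in numbers 3 and 6 than in numbers 1 and 4 (log2 1.28, SE 0.04, edgeR adjusted p = 2.53e-20). Il11ra1, the receptor of interleukin 11, was at 24.3 ± 1.87, 15.9 ± 2.99 and 25.4 ± 1.19 CPM. Among prostaglandin genes, Ptges, the synthase that works after Ptgs2, had another order than Ptgs2, at 17.4 ± 1.55 CPM in numbers 1 and 4, 4.69 ± 0.863 in numbers 2 and 5 and 9.28 ± 0.795 in numbers 3 and 6. It was 3.83-fold lower in numbers 2 and 5 than in numbers 1 and 4 (log2 -1.94, SE 0.09, edgeR adjusted p = 2e-16) and higher in numbers 3 and 6 than in numbers 2 and 5 (log2 1.04, SE 0.10, edgeR adjusted p = 4.69e-10).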

How the data were processed

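Total RNA of 18 libraries was sequenced as 52-base read pairs after depletion of ribosomal RNA with a stranded kit, per the labels' protocols. The authors deposited 1 merged salmon table of expected counts by gene, as its name in the labels records. Build mm10, limma and edgeR are named in the submitters' processing notes. The annotation and strand setting behind the counts, and salmon's version, are not given in sources used here, so reads of overlapping genes may be mixed. Totals of 7010742 to 26501223 per library set the precision.

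Expected counts were rounded, and filterByExpr (minimum count 10, minimum total 15) kept 14788 of 45706 genes, with 99.9% or more of each library's counts. Libraries were scaled by TMM. CPM used the scaled totals, and log2 CPM a prior count of 2. Labelled times were tested in edgeR by robust quasi-likelihood with time in the model of all 18 libraries, and number sets with time and set, two-sided, with Benjamini-Hochberg adjustment over all genes and a threshold of 0.05. SE is the log2 fold change divided by the root of F. The tests were checked on simulated counts. For the time test these held no set differences, so the check does not show how that test behaves on these libraries.

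The members, the number sets and the 16 gene lists were chosen with earlier results of these data known. The naming rule took all members, per set comparison the 3 pathway genes called with the largest rise and fall at mean log2 CPM of at least 2, and the 2 genes most correlated with each member. All 18 pairs with the same number correlated above the bound of 0.1, at 0.297 to 0.718, in how they deviated from their group means. Pairs from the same set with different numbers did so nearly as well (0.237 to 0.688, median 0.569 against 0.590). The check thus shows likeness by set, and does not show that each number pairs its libraries. The lowest chi-square per degree of freedom between libraries of a group was 3.15, so none were taken as duplicates. Positions came from GENCODE M21, which held 45143 of the identifiers. Alternatives were DESeq2, other scalings, no filter, the replicate block, limma-voom and libraries left out. Python 3.11.15 (pandas 2.3.3, numpy 2.4.6, matplotlib 3.10.9) and R 4.3.3 (DESeq2 1.42.0, limma 3.58.1, edgeR 4.0.16) were used. Of the genes most like a member, 1 that the naming rule picked is not reported here.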

Additional observations from a re-analysis of the deposited data

Results flagged for a closer look

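Single libraries stood apart from the others of their number set in 4 of 60 groups checked (10 members, each in 3 times and 3 sets). The rule was a gap to the nearest library above Dixon's 95% critical value. In groups drawn from 1 normal population, chance alone exceeds it in about 1 in 20. Groups of labelled time mix the 3 sets, so that rate need not hold for them. All 4 groups found were number sets. Il6 in numbers 2 and 5 was lowest in 4 h replicate 2, at 0.353 CPM from 4 counts, with the next library at 1.02 CPM. Cxcl1 in numbers 3 and 6 was highest in 4 h replicate 6, at 15.3 CPM, with the next at 12.9. Ccl7 was highest in the same library, at 36.6 CPM with the next at 27.9. In numbers 1 and 4, Ccl7 was highest in 24 h replicate 4, at 19.4 CPM with the next at 15.1. The library 4 h replicate 6 had a total of 8924701 counts, the second lowest of the 18, and its part in these values was not tested.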

How the results depend on the processing

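Between labelled times, edgeR with the replicate block called 1 gene at 24 h against 0 h, and limma-voom with library weights and the block called 4 at 4 h and 10 at 24 h against 0 h, with 1 member, Socs3. The block changed no other call of a member. Leaving out 1 library gave 0 to 1 genes called at 4 h against 0 h and 0 to 1 at 24 h against 4 h (1 without 4 h replicate 3 in both). On library totals without scaling, the median gene moved by -0.17 at 24 h against 0 h, -0.16 at 24 h against 4 h, 0.17 for numbers 3 and 6 against 1 and 4 and 0.25 against 2 and 5. It called 3788 genes (1348 higher, 2440 lower) for numbers 2 and 5 against 1 and 4, 4536 (3404, 1132) for 3 and 6 against 1 and 4, and 5130 (4406, 724) with 3 members for 3 and 6 against 2 and 5. The main splits were 4378 and 4428, 4471 and 4362, and 4230 and 4210. Library totals without 24 h replicate 5, an alternative chosen after seeing the data, called 2 members higher and 4 lower in the last comparison, as TMM did.

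Contrasts within 0 h, 4 h and 24 h, in the fit of all 18 libraries, called 5699, 5473 and 4926 genes for numbers 2 and 5 against 1 and 4. They called 5631, 5490 and 5741 for 3 and 6 against 1 and 4, and 5137, 5001 and 4757 for 3 and 6 against 2 and 5. Leaving out 1 library gave 8312 to 8952, 8446 to 8972 and 7852 to 8557 genes, and 2 to 4, 7 and 6 members. The interaction test called 8 genes on library totals, and 302 genes with 1 member without the filter on low counts.

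Signs turned only for values that had not passed the test. At 24 h against 0 h library totals gave Lif -0.053, Ccl2 -0.013, Nfkbia -0.20 and Tnfaip3 -0.18, and at 24 h against 4 h Lif -0.12, Cxcl1 -0.030, Ccl2 -0.033, Ccl7 -0.097 and Socs3 -0.057. Nfkbia at 24 h against 0 h was -0.010 with the number set beside time and -0.0044 with limma-voom and the block, Il6 at 4 h against 0 h was 0.24 with limma-voom, and Lif at 24 h against 4 h was -0.00076 with DESeq2. For numbers 2 and 5 against 1 and 4, Nfkbia was -0.10 on library totals, -0.00063 without the filter, -0.0058 with limma-voom, -0.033 in numbers 1 to 3, -0.0083 within 4 h and -0.0087 within 24 h. In the same comparison Il6 was -0.049 in numbers 1 to 3, -0.15 within 4 h and -0.36 within 24 h. Lif was -0.040 on library totals, -0.056 in numbers 4 to 6 and -0.18 within 4 h. Tnfaip3 was 0.015 in numbers 4 to 6 and 0.025 within 4 h, Ccl7 0.044 within 24 h, and Cxcl10 -0.033 within 0 h and -0.078 within 4 h. For numbers 3 and 6 against 1 and 4, Il6 was 0.045 on library totals, 0.085 with limma-voom and 1.31 within 0 h (edgeR adjusted p = 0.0189), Lif 0.065 on library totals and 0.13 within 4 h, and Il11ra1 -0.042 in numbers 4 to 6. For numbers 3 and 6 against 2 and 5, Lif was 0.10 on library totals, 0.016 in numbers 4 to 6 and 0.31 within 4 h, and Socs3 -0.028 within 24 h. The causes were not tested.

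Leaving out 1 library gave these ranges where a sign turned. At 4 h against 0 h: Il6 -0.19 to 0.093, Cxcl1 -0.23 to 0.50, Ccl2 -0.11 to 0.15, Ccl7 -0.045 to 0.36, Nfkbia -0.050 to 0.10 and Tnfaip3 -0.022 to 0.13. At 24 h against 0 h: Cxcl1 -0.13 to 0.60, Ccl2 -0.013 to 0.26, Nfkbia -0.068 to 0.095 and Tnfaip3 -0.075 to 0.11. At 24 h against 4 h: Lif -0.052 to 0.074, Cxcl1 -0.31 to 0.51, Ccl2 -0.040 to 0.25, Ccl7 -0.054 to 0.32, Nfkbia -0.10 to 0.064, Tnfaip3 -0.11 to 0.046 and Socs3 -0.034 to 0.19. Between sets: Lif -0.070 to 0.074 and Nfkbia -0.021 to 0.035 for numbers 2 and 5 against 1 and 4, Il6 -0.31 to 0.11 for 3 and 6 against 1 and 4, and Socs3 -0.0099 to 0.052 for 3 and 6 against 2 and 5. Il6, Lif and Cxcl5 had the fewest counts of the members, so depth limits their values.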
